A study of Talpa occidentalis with 6 samples.

Results

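The regions described here are stretches of mouse autosomal DNA that were accessible in both the ovary and the testis of the embryo. They were found in a pair of genome segmentations, 1 for each gonad, which cut the mm9 genome into bins of 200 bp and give each stretch of bins 1 of 5 numbered chromatin states. In each gonad the state covering the least autosomal sequence was taken as open, which was state 1 in both, and a region is a run of adjacent bins in that state in both gonads. There were 11422 such regions on the 19 autosomes. They lay in 11120 of the 22733 stretches open in either gonad, some of which hold several regions. The regions were chosen by the deposited states of these same files, so their number, widths and overlaps are descriptions and carry no test.

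ATAC-seq, an assay that tags accessible DNA with a transposase so that it can be sequenced, was applied to gonads of mouse embryos at embryonic day 13.5, for comparison with gonads of the Iberian mole. Gonads were made into cell suspensions and tagmented at 50000 cells per reaction, per the labels' protocols. The 6 labelled samples are wild-type moles at postnatal day 7, and no labelled sample is a mouse, so the strain, genotype and number of mouse embryos and libraries are not given in the sources used here. Each gonad is 1 segmentation, with no replicate check and an unknown depth, and intervals on shares (95%, Wilson) cover counting error only. A whole gonad mixes cell types, so a site open in fewer cells and a site less open in each cell cannot be told apart.

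Accessible chromatin marks places where nucleosomes are displaced, chiefly promoters and enhancers. Promoters of genes that every cell uses tend to be open in all tissues, whereas enhancers differ more between cell types. The mouse ovary and testis grow from the same bipotential gonad, and at this embryonic stage they have recently begun to differ, with Sertoli cells forming in the testis and pre-granulosa cells in the ovary around germ cells of common origin.

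The state numbers form an ordered series, since 97.9% of state borders in the ovary and 98.1% in the testis joined neighbouring numbers. State 1 covered 9.69 Mb of autosomal sequence in the ovary and 12.6 Mb in the testis. State 2, the next step, covered 359 Mb and 419 Mb, and state 3 the bulk of the genome, 73.1% and 70.9%. State 5, at the other end of the series, filled the start of each autosome in both gonads, from 3 Mb up to 3.08 Mb on chromosome 19. No genome sequence was used, so state 5 at gaps in the build cannot be told apart from closed chromatin, there or elsewhere. On the Y chromosome state 1 covered 78.4 kb in 14 segments in the testis and 0 in the ovary, so neither file went against its gonad label.

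About as many open segments of each gonad held a shared region. Of 12361688 autosomal bins, 36920 were open in both gonads, or 0.299%, against 0.392% open in the ovary and 0.51% open in the testis. The shared bins added up to 7.38 Mb. They made up 76.2% of the open length of the ovary and 58.5% of that of the testis, and the Jaccard index, the length open in both divided by the length open in either, was 0.495. By segments, 11357 of the 17575 open segments of the ovary held a shared region (64.6%, 63.9% to 65.3%), as did 11188 of the 16699 of the testis (67%, 66.3% to 67.7%). Each region lies in 1 open segment of each gonad, so the near counts of segments are largely built in. The shared length is the same for both, so the shares of length restate how much was open in each gonad.

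Segments that held a shared region were wider than segments open in 1 gonad alone. In the ovary the former had a mean width of 708 bp and the 6218 others a mean of 264 bp. In the testis the means were 898 bp and, for the 5511 others, 466 bp. A wider segment has more bins that can be open in the other gonad, so part of this difference is built in. A single bin made up 80.2% of the ovary segments without a shared region, compared with 25.1% of those of the testis. Where a segment had no shared bin, the other gonad usually stood 1 step lower: 70.3% of such ovary segments reached state 2 in the testis, and 88.4% of such testis segments reached state 2 in the ovary. Segments of 1 gonad whose other gonad reached only state 4 or 5 were rare, 14 from the ovary and 13 from the testis.

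The bins just outside the rule show where its border lies. A further 9633 bins were in state 1 in the ovary and state 2 in the testis, and 24702 were in state 1 in the testis and state 2 in the ovary. State 2 in both gonads covered 1056957 bins, or 211 Mb.

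Most shared regions were a few bins wide, and a small group was far wider. The median width was 600 bp, the mean 646 bp (SD 647, n = 11422 regions), and from the lower to the upper quartile widths ran from 400 to 800 bp. A width of 400 bp was the commonest, with 3039 regions, followed by 600 bp with 2645 and 200 bp with 1921. Regions of 1.2 to 1.8 kb numbered 954. At 2 kb and more there were 139 regions, 1.22% of the number and 7.26% of the length. Neighbouring regions separated by a single bin numbered 161 pairs. In 104 of these pairs the bin between was open in the testis and in state 2 in the ovary, in 26 the reverse held, and in 31 it was in state 2 in both.

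**Figure D1:**
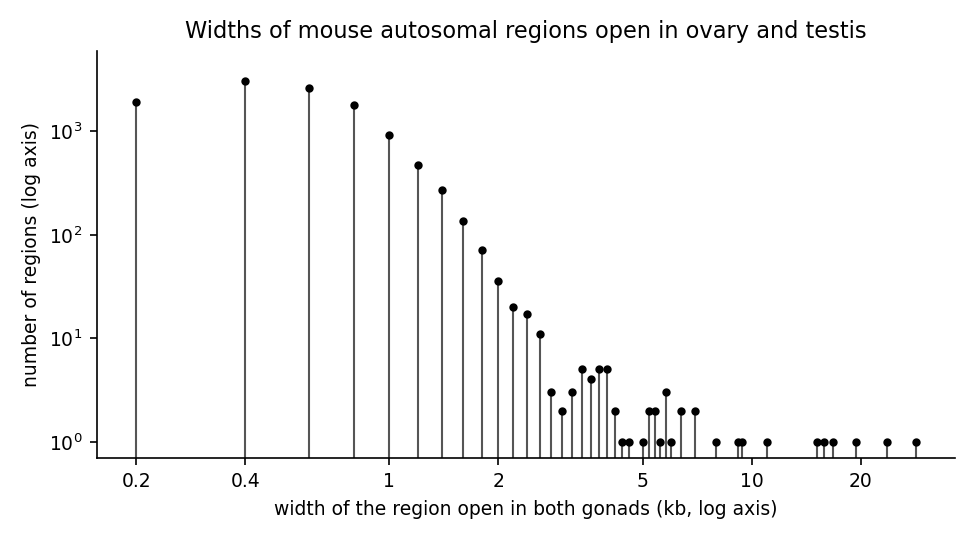
Number of autosomal regions open in both mouse gonads (log axis) at each width in kb (log axis), 1 point per width in steps of 200 bp. Counts peak at 3039 regions of 400 bp, fall with width to a few regions at 3 kb, and end in a scattered tail that reaches 28.4 kb.

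The widest regions lay together in a few places. Chromosome 11 held the 3 widest, at chr11:3052001-3080400 (28.4 kb), chr11:3025401-3049000 (23.6 kb) and chr11:3080601-3100000 (19.4 kb), all within 100 kb of the end of the leading stretch of state 5. The first and the third had the same borders in both gonads. Next came chr8:19934201-19951000, which spanned 16.8 kb in both gonads.

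A second place was chromosome 1. It held chr1:90151001-90166800 (15.8 kb), chr1:90133201-90148400 (15.2 kb), chr1:90122001-90133000 (11 kb), chr1:85270201-85279600 (9.4 kb) and chr1:90179401-90187400 (8 kb). The remaining member of the 10 widest was chr8:19978601-19987800, at 9.2 kb. On this part of chromosome 1 the ovary segment was often the longer, so that 26.4 kb of unbroken open ovary chromatin at chr1:90122001-90148400 held a pair of shared regions.

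Windows of 1 Mb that held a region of at least 5 kb numbered 10, on 6 chromosomes, a limit set after the widths were seen. They held 356 regions, 3.12% of the number and 7.49% of the length, with a mean width of 1553 bp against 617 bp elsewhere, while the median was 600 bp in both. Outside them the widest region was chr12:20236201-20240200, at 4 kb, followed by chr14:44057001-44060800 at 3.8 kb. State 5 covered at least 30% of the window in 5 of the 10, and 67.6% of the window chr1:85000001-86000000. The ovary had more open sequence than the testis in 8 of these windows, the testis in 1 (chr11:3000001-4000000), and the lengths were equal in 1 (chr17:39000001-40000000, whose only region, chr17:39979801-39985800, was 6 kb wide). In all, these windows held 744 kb open in the ovary and 581 kb open in the testis, although the testis had more open sequence over the autosomes as a whole. The sources used here do not say how reads from repeated sequence were placed, and its part in these widths was not tested.

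The first 100 kb after the leading stretch of state 5, next to the centromere in the mouse, held 45 regions over the 19 autosomes, or 23.7 per Mb against 4.62 per Mb for autosomes as a whole. They were uneven: chromosome 9 had 25 of them, chromosome 11 had 7, chromosomes 4 and 17 had 4 each, and 11 autosomes had none.

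The testis had the wider open segment around most shared regions. Each region lies in 1 open segment of each gonad. The testis segment was wider for 6865 regions (60.1%, 59.2% to 61%), the ovary segment for 1521 (13.3%, 12.7% to 14%), and the widths were equal for 3036 (26.6%, 25.8% to 27.4%). The mean segment width was 924 bp in the testis (SD 809) and 728 bp in the ovary (SD 842), counted once per region. Differences were small in most regions: 64.3% were within 1 bin and 83.7% within 2 bins, whereas 636 regions (5.57%) differed by at least 1000 bp. Sequencing depth can move such borders and is unknown, and it is not given whether the gonads were segmented with 1 shared model, so neither can be told apart from the gonad.

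**Figure D2:**
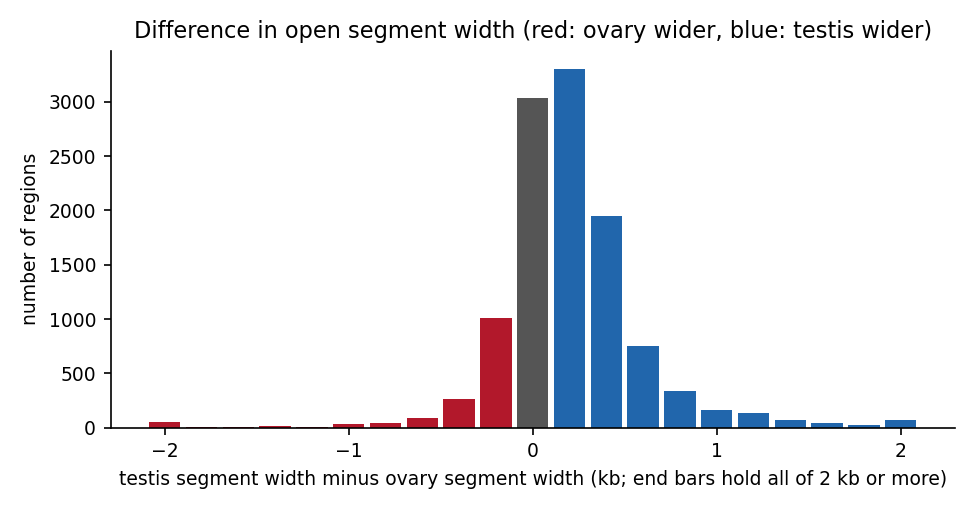
Number of autosomal regions by the width of the testis open segment minus the width of the ovary open segment, in kb and in steps of 200 bp, with red bars for a wider ovary segment, grey for equal widths and blue for a wider testis segment. The grey bar holds 3036 regions, and the blue side holds 6865 regions against 1521 on the red side.

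The ovary segment mostly lay inside the testis segment. It did so, with at least 1 border differing, at 6613 regions (57.9%), while the testis segment lay inside the ovary segment at 1399 (12.2%), the borders coincided at 2458 (21.5%) and the segments were staggered at 952 (8.33%). The testis reached further on both sides at 2209 regions and the ovary at 211. The shared region was the whole ovary segment in 79.4% of cases and the whole testis segment in 33.8%. Where the testis segments ran past the shared region, over 2.66 Mb, the ovary was in state 2 in 13296 of 13298 bins. The ovary segments ran past it over 0.661 Mb, and there the testis was in state 2 in all 3305 bins. These segments thus differed at their margins by 1 step of the series. Since nearly all state borders join neighbouring numbers, this step is largely built in.

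Some segments of a gonad were met by several segments of the other. Testis segments with more than 1 shared region numbered 230, with 464 regions among them, and such ovary segments numbered 59, with 124 regions. The most regions in 1 segment was 3 for the testis and 4 for the ovary.

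The gonad with the wider segment changed with the width of the region. A region is never wider than the narrower of the segments compared, so part of this change can be built in. The share with a wider testis segment was 70.2% among regions of 200 bp (68.1% to 72.2%), 59.5% at 600 bp and 52.3% at 1.2 to 1.8 kb (49.1% to 55.5%). The share with a wider ovary segment over the same classes was 11.1%, 12.1% and 18.7%. From 2 kb to below 5 kb the order turned, with the ovary wider at 54 of 115 regions (47%, 38.1% to 56%) and the testis at 31 (27%, 19.7% to 35.7%). Among the 24 regions of 5 kb or more the ovary was wider at 6 and the testis at 9. Of all regions of 2 kb or more, the ovary was wider at 34 and the testis at 15 of the 68 inside the 10 windows described above, and at 26 and 25 of the 71 elsewhere. Over regions of any width, the ovary segment was wider at 49.7% of the 356 regions inside those windows (44.6% to 54.9%) and at 12.1% of the 11066 elsewhere. A segment that holds several regions counts once for each of them. Some long ovary segments in those windows, such as chr1:85246801-85257400, do so, and the interval treats their regions as separate.

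The largest excesses of either gonad fell in the same windows. For the ovary they were at chr1:90122001-90133000, where the ovary segment spanned 26.4 kb and the testis segment 11 kb, and at chr1:85280201-85281400 and chr1:85282001-85283400, which share an ovary segment of 13.2 kb and had testis segments of 1.2 and 1.4 kb. For the testis they were at chr11:3023601-3024400, with 25.8 kb in the testis and 0.8 kb in the ovary, at chr8:19972001-19978400, with 16 and 6.4 kb, and at chr8:19923201-19924400, with 8.6 and 1.2 kb. Away from these windows the excesses were smaller. An ovary segment of 8.6 kb held chr13:13022401-13025000, whose testis segment was 2.6 kb, and a testis segment of 4.4 kb held chr1:88424401-88425000, whose ovary segment was 0.6 kb. At chr17:34258001-34258600 the testis segment was 4 kb and the ovary segment 0.6 kb.

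Around the regions, the share of positions in state 1 or 2 fell over a few kilobases in both gonads. It was higher in the testis from 400 bp on. State 1 alone was commoner in the ovary from 2 kb on, with 3.16% against 2.88% in the testis at 2 kb. At 200 bp beyond the edges, 99.6% of positions were in state 1 or 2 in each gonad. At 1 kb the share was 82.6% in the ovary and 88.7% in the testis, at 5 kb 40.8% and 47.2%, and at 20 kb 33% and 38.5%. Over all autosomal bins it was 14.9% and 17.4%, so the testis share was the higher there too. Distances start at the edge of the shared region, and testis segments ran past that edge more often. The run of states 1 and 2 in which a region sat had a median length of 6.8 kb in the ovary (10th to 90th percentile 2.4 to 24.2 kb) and 8.8 kb in the testis (3 to 34.8 kb). Over all such runs the medians were 2.2 and 2.6 kb, and 9.27% of them in the ovary and 9.53% in the testis held a shared region. A run contains every region inside it, so long runs are counted more often among regions. The testis run was longer at 64.1% of regions and the ovary run at 32.4%.

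Segments open in 1 gonad alone lay in shorter runs of states 1 and 2. Their median run of states 1 and 2 in their own gonad was 5 kb for the ovary and 6.4 kb for the testis. At 1 kb from their edges, 68% of positions around ovary-only segments were in state 1 or 2 in the ovary and 60.3% in the testis. Around testis-only segments the shares were 79.2% in the testis and 61.8% in the ovary. At that distance the share in state 1 or 2 was higher around shared regions than around either kind of unshared segment, in both gonads. The plot of states by distance shows this. For state 1 alone, the ovary shares at 1 kb were 4.06% around shared regions, 4.09% around ovary-only and 0.944% around testis-only segments. In the testis they were 4.32%, 3.33% and 1.57%. At 10 kb the ovary share in state 1 or 2 was 34.8% around shared regions, 35.2% around ovary-only segments and 30.4% around testis-only segments. The testis shares were 41.4%, 39.3% and 37.4%. Distances start at the edge of the shared part for shared regions and at the segment's own edge for the others, which affects the shares close by.

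**Figure D3:**
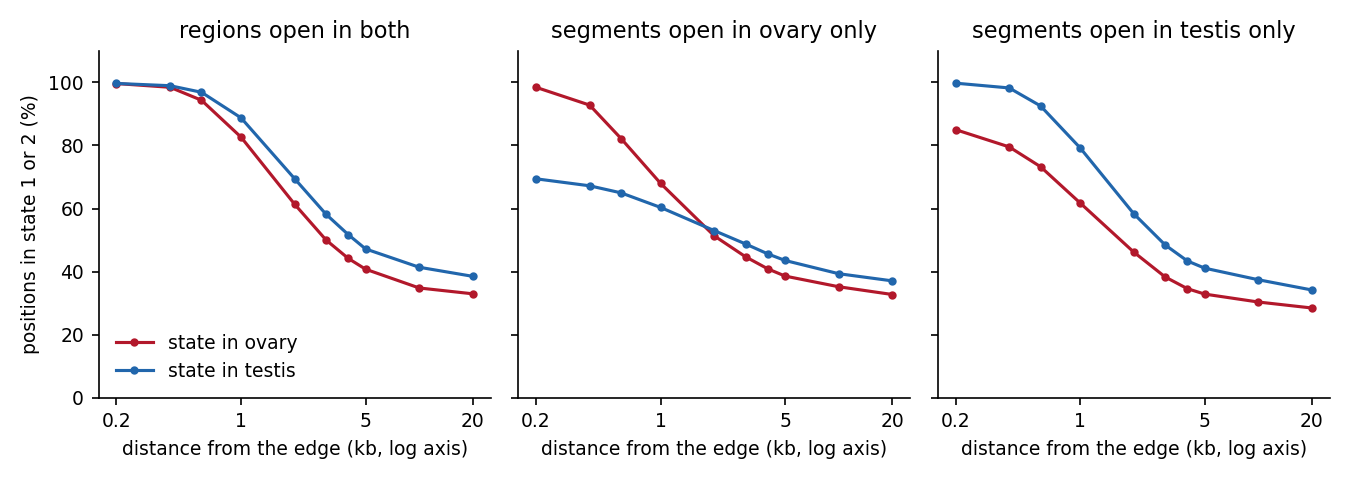
Share of positions in state 1 or 2 (percent) against distance from the edge in kb (log axis), for regions open in both gonads and for segments open in the ovary only or the testis only, with red lines for the state in the ovary and blue for the testis. At 1 kb the shared regions stand at 82.6% and 88.7%, ovary-only segments at 68% and 60.3%, and testis-only segments at 61.8% and 79.2% (ovary, then testis).

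The density of shared regions varied 1.94-fold between autosomes and was lower on the X chromosome, which the rule leaves out, than on any of them. The autosomal mean was 4.63 per Mb (SD 0.914, n = 19 autosomes). Chromosome 11 was the densest, with 777 regions or 6.38 per Mb, followed by chromosome 17 with 5.84 and chromosome 7 with 5.81. Chromosome 18 was the sparsest, with 299 regions or 3.29 per Mb, next to chromosome 14 with 3.48 and chromosome 12 with 3.6. Chromosome 7 held the most regions, 886. The order at the top depended on the denominator: per Mb outside stretches of state 5, chromosome 7 led with 6.7 and chromosome 11 followed with 6.65.

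**Figure D4:**
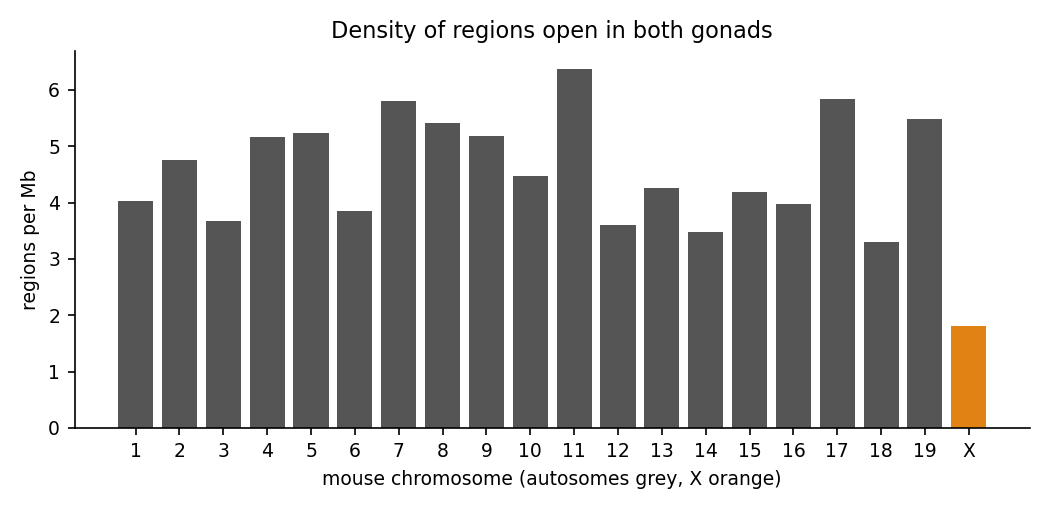
Regions open in both mouse gonads per Mb of segmented sequence, 1 bar per chromosome, with autosomes in grey and the X chromosome in orange. Autosomes lie between 3.29 (chromosome 18) and 6.38 (chromosome 11), and the X chromosome lies below them at 1.8.

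Widths varied less than densities. The median was 600 bp on each of the 19 autosomes. Mean widths ran from 586 bp on chromosome 15 to 789 bp on chromosome 1, which holds 3 of the 10 windows with very wide regions. The Jaccard index of the gonads was lowest on chromosome 14, at 0.449, and highest on chromosome 1, at 0.541. The testis had more open sequence than the ovary on each autosome, by a factor between 1.19 (chromosome 1) and 1.42 (chromosome 18).

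The testis also had the wider segment more often than the ovary on each autosome. Its share ran from 54.6% on chromosome 8 to 66.4% on chromosome 10, and that of the ovary from 9.9% on chromosome 3 to 17.5% on chromosome 1. The lowest testis share and the highest ovary share were on chromosomes that hold windows with very wide regions. The other chromosomes with such windows were mixed. The testis share was 57.3% on chromosome 5, but 62.5% on chromosome 4, 61% on chromosome 11 and 63.8% on chromosome 17, against 60.1% over all autosomes.

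**Figure D5:**
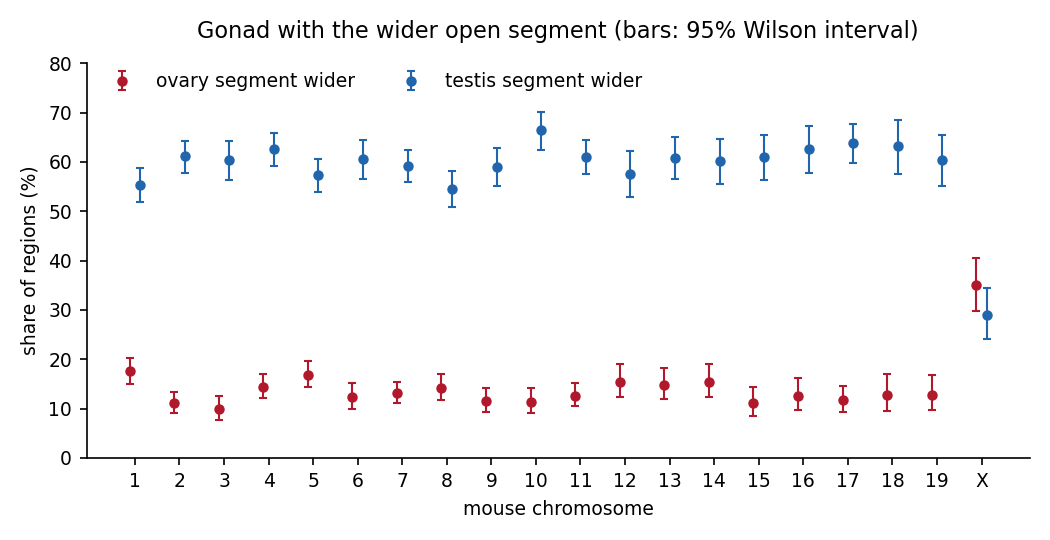
Share of shared regions (percent) on each mouse chromosome whose open segment was wider in the ovary (red) or in the testis (blue), with bars for the 95% Wilson interval, which covers counting error. On the 19 autosomes the testis share lies between 54.6% and 66.4% and the ovary share between 9.9% and 17.5%, while on the X chromosome the shares are 29% and 35%.

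On the X chromosome this order did not hold. Counted the same way, it had 300 regions, or 1.8 per Mb, with a median width of 400 bp. The ovary segment was wider at 105 of them (35%, 29.8% to 40.6%), the testis segment at 87 (29%, 24.2% to 34.4%), and widths were equal at 108. State 1 covered 325 kb of the X chromosome in the ovary and 287 kb in the testis, a ratio of testis to ovary of 0.884. State 2 covered 4.16% of it in the ovary and 0.54% in the testis, against at least 11% and 13.1% on any autosome. A female embryo carries a pair of X chromosomes and a male a single one, and the copy number of the X cannot be told apart from the gonad here.

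The last 250 kb of the X chromosome, at the end where the pseudoautosomal region shared with the Y chromosome lies, differed from the rest of it in these counts, a boundary set after the data were seen. It held 23 of the 300 regions, or 92 per Mb, and the testis segment was wider at 19 of these 23 and the ovary segment at 2. These regions share segments: they lay in 23 ovary segments and 11 testis segments, of which 4 held 16 of the regions. Counted once each, the testis segments had a mean width of 2891 bp (SD 3207, n = 11) and the ovary segments 1035 bp (SD 733, n = 23). The open sequence in those 250 kb differed less, 32 kb in the testis and 23.8 kb in the ovary. In the rest of the X chromosome, with 277 regions, the ovary segment was wider at 37.2% (31.7% to 43%) and the testis segment at 24.5% (19.9% to 29.9%). That ovary share lay above the highest autosomal one of 17.5%.

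Along the autosomes the regions were clustered. The median distance to the next region was 68.4 kb and the mean 210 kb, and 738 of 11403 distances were under 2 kb. Among 2337 windows of 1 Mb with under 20% of state 5, the median count was 3, 418 windows (17.9%) held none, and the variance was 6.6 times the mean. Among all 2482 windows, 56 had at least 20 regions and held 14% of all regions. By position, the density was 5.74 per Mb in the last of 10 equal parts of the chromosomes and 5.53 in the second, and 4 per Mb in the third. The first part, which includes the leading stretch of state 5, had 3.81 per Mb, or 5.3 per Mb outside state 5.

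The densest windows were of different kinds. The 3 densest were chr8:19000001-20000000 with 89 regions, chr1:85000001-86000000 with 60 and chr5:15000001-16000000 with 57. All of these are among the 10 windows with a region of at least 5 kb. State 2 covered 12.9%, 8.74% and 10.7% of them in the ovary and 16%, 10% and 15.5% in the testis. Over the autosomes it covered 14.5% and 16.9%. The ovary segment was wider at 33.7%, 68.3% and 50.9% of the regions in these windows. The next window, chr7:52000001-53000000 with 47 regions, had a widest region of 2 kb, state 2 over 65.6% of its length in the ovary and 72.1% in the testis, and a wider testis segment at 61.7% of regions. The window chr10:80000001-81000000, with 41 regions, was like it, with state 2 over 80.1% and 86.8% and a wider testis segment at 61%.

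Leaving out the 10 windows with very wide regions and those with 20% or more of state 5, which left 2332 windows and 10783 regions, regions were denser the larger the share of the window in state 2 in both gonads. Windows with under 2% of it held 0.648 regions per Mb, and 58.5% of these 622 windows held none. Those with 5% to 10% held 4.5 per Mb, those with 20% to 40% held 11.9 and the 30 windows with 40% or more held 20.5. Since nearly all regions border on state 2, part of this relation is built in. Widths and the wider gonad varied little from 2% upwards: the mean width was 637 bp in windows of 2% to 5% and 608 bp in those of 40% or more, and the testis segment was wider at 63.6% and 62.8% of regions. The share of open ovary length that was shared was 65.8% in windows with under 2% of state 2 and between 76.4% and 78.2% in the others.

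Stretches without a shared region took up much of the autosomes. Those of over 1 Mb between neighbouring regions numbered 520 and covered 38.3% of autosomal sequence. The longest was chr7:39056601-46528800, of 7.47 Mb, where state 5 covered 94% in both gonads. The ovary had 23 open segments in it and the testis 0. The next, chr8:98412601-105077400 of 6.66 Mb and chr15:13103601-18833400 of 5.73 Mb, were mostly in state 3, at 87.3% and 85.7% in the ovary and 88.1% and 86% in the testis. Each held open segments of both gonads that did not coincide, 5 of the ovary and 4 of the testis in the former and 3 of each in the latter.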

How the data were processed

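The values used are the chromatin states that the authors deposited, 1 segmentation for the mouse ovary and 1 for the mouse testis. Per the file headers they were made with EpiCSeg, whose version, input and model are not given in the sources used here. The build mm9 and the tool STAR 2.6.1d appear in the submitters' processing notes, without a role. Chromatin state is a category, not a score. Adjacent open bins were joined with numpy 2.4.6 and pandas 2.3.3, and Wilson intervals came from scipy 1.17.1. In both files, 4 stretches (3 kb of autosomal sequence) are covered by no segment and count as neither open nor part of any denominator. Positions are 1-based. On simulated data, 3000 of 3000 placed regions were recovered with both segment widths. There the open state was given in advance and each region had its own segment in each gonad. The simulation thus checks the joining of bins, not the choice of the open state or segments that hold several regions. Named regions are the 10 widest, the 3 largest excesses of each gonad, the 3 densest windows, the 3 longest stretches without a region and the extreme autosomes. Others were named after their values were seen. The members and measures were chosen with earlier results of these data known. No mouse genome or annotation was used here, so no sequence or gene is given. The mole files were not used.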

Additional observations from a re-analysis of the deposited data

How the results depend on the processing

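No paired analysis was possible because each mouse gonad is 1 segmentation, with no values per sample. Of 24 values recomputed under an alternative, 15 stayed within 1.5 times the reported value or, for shares, within its 95% interval, and 9 moved. Some alternatives, such as joining regions 1 bin apart or leaving out 1 autosome, alter too little for a 1.5-fold change, so their staying was fixed in advance. Counting states 1 and 2 together as open gave 67938 regions of 226 Mb with a median width of 2200 bp, a wider ovary segment at 35.9% and a wider testis segment at 61.5%. The share with a wider testis segment was 58.1% among regions of at least 400 bp and 59.1% where each segment holds 1 region. Without the 10 windows holding a region of at least 5 kb, an alternative chosen after seeing the data, it was 61.4%, and the share with a wider ovary segment was 12.1%. The testis share exceeded the ovary share under each of these settings. The ratio of the densest to the sparsest autosome ran from 1.68 with states 1 and 2 together to 1.92 outside state 5. Leaving out 1 autosome in turn, the shared length ran from 6.76 to 7.19 Mb. The unknown depth of the libraries limits what a missing region can show.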
